A study of Mus with 12 samples.

Results

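The 10 genes described here are the Notch ligands Dll1, Dll4, Jag1 and Jag2, the receptors Notch1 and Notch2, the target genes Hes1 and Hey1, the glycosyltransferase gene Mfng and the coactivator gene Maml2. They were chosen by name for their roles in Notch signalling, and all 10 were found among the 770 genes of the panel. Levels came from an nCounter mouse IO360 panel, which counts a fluorescent barcode for each RNA molecule bound by a gene's probes, in total RNA of formalin-fixed, paraffin-embedded (FFPE) liver tumours. The tumours were MYC-driven hepatocellular carcinomas (MYC-HCC) of 12 mice, 3 in each of 4 groups. All 4 groups carried this tumour and all received an antibody: control IgG (Ctrl IgG), anti PDL1 (Anti PDL1), anti CTLA4 (Anti CTLA4) or both checkpoint antibodies (Anti PDL1+CTLA4, called the combination). Nothing in the sources used here gives strain, sex, age, dose, time or the means by which MYC was expressed. The comparisons ask how blocking the inhibitory pathways of PDL1 and CTLA4, alone or together, altered transcripts in the tumour.

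In Notch signalling a ligand of the Delta or Jagged family on 1 cell binds a Notch receptor on its neighbour. The receptor is then cut, and its intracellular part enters the nucleus, joins the DNA-binding protein RBPJ and a Mastermind coactivator and switches on target genes such as Hes1 and Hey1. In the liver the pathway is known for directing bile duct formation and for patterning blood vessels, where Dll4 marks sprouting and arterial endothelium. Values are normalized counts throughout, with 20 as the lowest value listed (the floor). Levels of different genes were not compared, because probes differ in efficiency.

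Every library held liver transcripts. The score (mean log2(value + 1) over a list) of 4 liver genes, Apoe, Arg1, Fbp1 and Serpina1a, ran from 11.85 to 16.26. Recovered counts, the barcode counts before normalization, totalled 439149 to 864464 per library. In 3 libraries, Anti CTLA4 1, Anti CTLA4 2 and Anti PDL1 2, the liver score was 15.22 to 16.26 and the score of 7 proliferation genes 5.70 to 8.73. In the IgG libraries these scores were 11.94 to 12.64 and 9.70 to 9.83, and the next highest liver score was 14.70, in the combination tumour of mouse 2. The median of the 519 genes above the floor in all 12 libraries was 286.1 to 407.6 normalized counts in these 3 libraries, against 189.5 to 196.5 in the IgG libraries. Results are therefore also given without these 3, called the liver-rich libraries, and after scaling every library to a common median.

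No Notch gene passed the test in any of the 6 comparisons. The test was limma over all 770 genes with 1 mean per group, two-sided, with Benjamini-Hochberg adjustment and a threshold of 0.05. Of all genes, 2.60% passed in anti-CTLA4 against IgG, all of them lower. In anti-PDL1 against IgG 2.99% passed (0.260% higher and 2.73% lower), and in the combination against IgG 2.86% (0.130% higher and 2.73% lower). With every value below the highest floor limit raised to that limit, 2 genes passed in each of these 3 comparisons. No gene of the panel passed in the combination against either single antibody. The interaction (the combination's log2 difference from IgG minus those of both single antibodies) passed in 1.30%. With 10 Notch genes, 0 calls lie near these shares. Replicates are separate mice.

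An unadjusted limma p below 0.05 was found for 2 of the 10 genes in anti-CTLA4 against IgG (Dll4 and Hes1, both higher), beside 21.4% of all genes. In anti-PDL1 against IgG it was found for 2 (Notch2 higher, Hey1 lower), beside 19.0%, and in the combination against IgG for 0, beside 15.5%. The combination differed from anti-CTLA4 at this level in 2 (Dll4 and Hes1, both lower), beside 4.29% (33 genes), and from anti-PDL1 in 0, beside 0.649% (5 genes). The interaction gave 3 (Mfng above 0, Dll4 and Notch2 below), beside 13.8%.

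Counting genes whose groups did not overlap gave a similar picture, although 3 mice against 3 cannot reach an exact two-sided p below 0.1. Under anti-CTLA4 Dll4 and Notch2 lay wholly above IgG (19.0% of all genes did) and Jag2 and Mfng wholly below (11.0%). Under anti-PDL1 Notch2 lay above IgG (13.0%) and Hey1 and Mfng below (13.1%). Under the combination Notch1 lay above IgG (22.7%) and none below (13.2%). Against anti-PDL1 the combination was wholly above in none (1.43%) and below in Dll1 (0.779%). Within same-numbered pairs of these groups, Hes1 was higher in all 3 pairs (8.83% of all genes) and Dll1, Jag1 and Notch2 lower in all 3 (8.83%). None of the 4 passed with the replicate number as a block, and no label says that these mice were paired. Against anti-CTLA4 it was wholly above in Jag2 (2.47%) and below in Dll4 (3.25%).

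**Figure D1:**
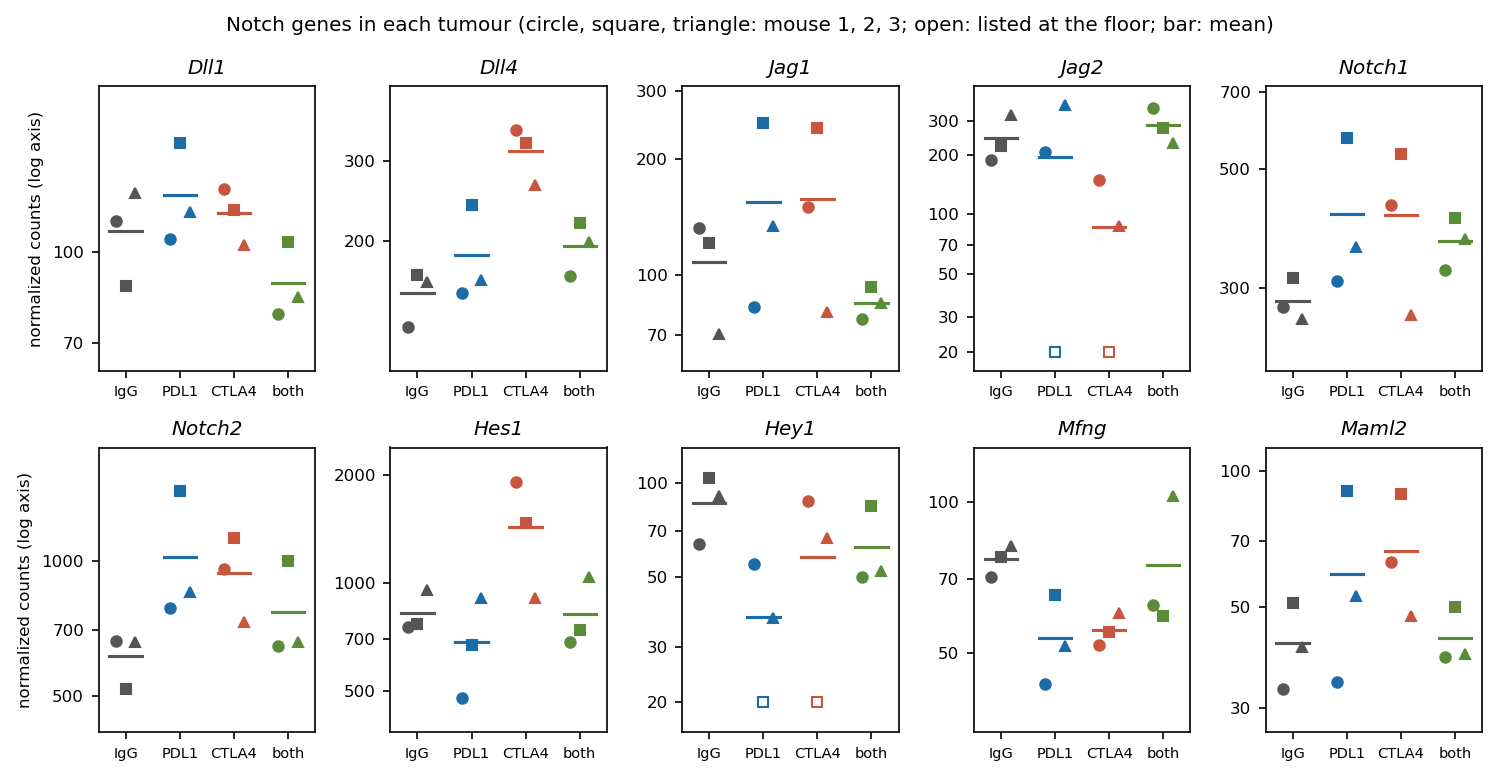
Normalized counts (log axis) of the 10 Notch genes in each tumour by treatment; circles, squares and triangles are mouse 1, 2 and 3, bars are group means, and open symbols are values listed at the floor of 20. All 3 Dll4 values under anti-CTLA4 lie above those of the other groups, and Jag2 and Hey1 reach the floor in Anti PDL1 2 and Anti CTLA4 2.

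Among the ligands, Dll4, the Delta-type ligand of endothelial cells, had the clearest separation between groups. Its normalized counts were 129.0, 168.1 and 162.3 in the IgG mice and 350.7, 328.1 and 264.9 in the anti-CTLA4 mice. They were 153.1, 239.5 and 163.6 under anti-PDL1 and 167.3, 218.7 and 198.3 under the combination. Every anti-CTLA4 tumour lay above every tumour of the other 3 groups, and those 3 groups overlapped. The share of all genes with this order over 4 groups was not counted. By pairs of groups, anti-CTLA4 lay wholly above IgG in 19.0% of all genes and wholly above the combination in 3.25%. The group means were 153.1 ± 21.1 under IgG and 314.6 ± 44.5 under anti-CTLA4 (SD, n = 3 each), a ratio of 2.05. The log2 difference was 1.03 (SE 0.235, 95% interval 0.50 to 1.56, limma adjusted p = 0.0537), the 23rd smallest p of 770 and just short of the threshold.

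The Dll4 difference kept its sign in all 22 alternative settings, with log2 values from 0.45 to 1.15 and limma adjusted p from 0.0213 to 0.437. It passed without the mean-variance trend (limma adjusted p = 0.0295) and without Anti PDL1 2 (limma adjusted p = 0.0213). Without the 3 liver-rich libraries it was 0.80 (limma adjusted p = 0.271), with Anti CTLA4 3 the lone anti-CTLA4 tumour, which the fit assumes to vary like the other groups. The same holds for every anti-CTLA4 value given without these libraries. Scaling to a common median reduced it to 0.46 (limma adjusted p = 0.216). As a share of the library median, Dll4 was 1.03, 1.15 and 1.08 under anti-CTLA4 and 0.667 to 0.887 under IgG. It was 0.588 to 0.744 under anti-PDL1 and 0.633 to 0.814 under the combination. On this scale the anti-CTLA4 and IgG groups still did not overlap, an order that 9.44% of the 519 genes showed.

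Every combination tumour had less Dll4 than every tumour under anti-CTLA4 alone. The means were 194.8 ± 25.9 and 314.6 ± 44.5 (SD, n = 3 each), with a log2 difference of -0.69 (SE 0.235, limma adjusted p = 0.733). The interaction was -0.94 (SE 0.332, limma adjusted p = 0.345), beside a median of -0.59 over the 519 genes above the floor everywhere, and -0.34 with median scaling (limma adjusted p = 0.515). Against IgG the combination differed by 0.35 (SE 0.235, limma adjusted p = 0.565) and anti-PDL1 by 0.25 (SE 0.235, limma adjusted p = 0.594). With median scaling these values were -0.11 and -0.23.

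Endothelial markers, like Dll4, were at higher levels in every anti-CTLA4 tumour than in the IgG tumours, by their score. The score of 8 endothelial genes (Pecam1, Cdh5, Kdr, Flt1, Tie1, Robo4, Icam2 and Angpt2, each above the floor in all 12 libraries) was 7.22 to 7.42 under IgG and 7.86 to 8.41 under anti-CTLA4. Anti-PDL1 tumours scored 7.35 to 8.53 and combination tumours 7.68 to 7.94, the latter also all above IgG. The scores were taken on values not scaled to a common median. None of the 8 passed in anti-CTLA4 against IgG, where all had log2 differences above 0, with a median of 0.83 against 0.51 for the 519 genes above the floor everywhere. The log2 level of Dll4 minus this score was -0.04 ± 0.18 under IgG, 0.16 ± 0.19 under anti-CTLA4, -0.28 ± 0.29 under anti-PDL1 and -0.19 ± 0.08 with both (SD, n = 3 each). The anti-CTLA4 and IgG ranges of this difference, -0.04 to 0.33 and -0.20 to 0.16, overlapped. Anti PDL1 2 had the highest endothelial score and the lowest value of the difference, -0.62. In RNA of whole tumours, a change in the number of cells of a type cannot be told apart from a change in RNA per cell.

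**Figure D2:**
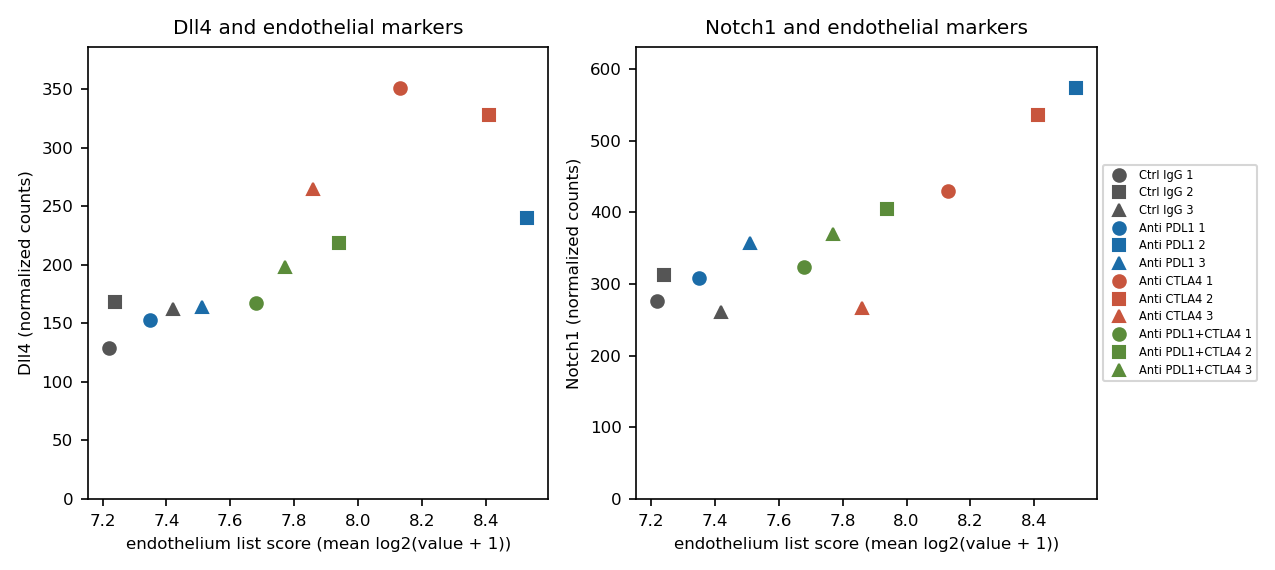
Normalized counts of Dll4 (left) and Notch1 (right) in each of the 12 tumours against the endothelium list score, the mean log2(value + 1) of 8 endothelial genes; colours are treatments and symbols mice. Dll4 of the 3 anti-CTLA4 tumours (264.9 to 350.7) lies above that of Anti PDL1 2 (239.5), which has the highest score, 8.53.

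Dll1, the Delta-type ligand known from marginal zone B cell development, was lowest under the combination. Normalized counts were 112.9, 87.7 and 125.9 under IgG, 105.1, 153.4 and 116.8 under anti-PDL1 and 128.1, 118.1 and 103.0 under anti-CTLA4. The combination tumours had 78.5, 104.0 and 83.9. All 3 lay below each anti-PDL1 tumour, but 1 of them lay above an IgG tumour. The nearest values of the 2 groups, 104.0 and 105.1, rested on 58 and 160 recovered counts. Their 95% Poisson intervals, which cover counting error only, were 79 to 134 and 89.5 to 123 normalized counts and overlapped. The combination and anti-PDL1 means were 88.8 ± 13.4 and 125.1 ± 25.2 (SD, n = 3 each), with a log2 difference of -0.48 (SE 0.240, 95% interval -1.02 to 0.06, unadjusted p = 0.0749, limma adjusted p = 1). Against IgG the combination had a log2 difference of -0.29 (SE 0.240, limma adjusted p = 0.66), and of -0.74 with median scaling (limma adjusted p = 0.122). With median scaling and without the 3 liver-rich libraries the adjusted p was 0.0465, in a setting in which 207 genes passed. As a share of the library median, the 8 Notch genes above the floor everywhere were counted, which leaves out Jag2 and Hey1. All 3 combination tumours lay below every IgG tumour for Dll1 and Jag1, as for 28.3% of the 519 genes. None of these 8 lay above (11.2%). Hey1, not among the 519, also lay below, with 0.189, 0.292 and 0.215 against 0.329 to 0.546. Under anti-CTLA4 Dll1 and Mfng of these 8 lay below IgG on this scale (21.2%). The listed values of Jag2 (0.444, 0.07 and 0.355 against 0.979 to 1.624) did so too. So did those of Hey1 (0.258, 0.07 and 0.271 against 0.329 to 0.546), both genes being at the floor in Anti CTLA4 2.

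Jag1, the Jagged ligand of bile duct formation, was high in single tumours. Normalized counts were 133, 121.5 and 70.7 under IgG, 82.8, 247.9 and 134.1 under anti-PDL1 and 150.6, 241.5 and 80.5 under anti-CTLA4. In the combination they were 77.0, 93.2 and 84.9. The 3 highest values were those of Anti PDL1 2, Anti CTLA4 2 and Anti CTLA4 1, and the groups overlapped. The log2 differences from IgG were 0.42 with anti-PDL1, 0.45 with anti-CTLA4 and -0.30 with both (SE 0.493 each, limma adjusted p of 0.674, 0.547 and 0.878), and were -0.07, -0.12 and -0.75 with median scaling (limma adjusted p of 0.916, 0.824 and 0.263). With quantile normalization they were 0.11, 0.12 and -0.59.

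Jag2, the other Jagged ligand, spanned the widest fold range of the 10 genes in these libraries. Its normalized counts were 189.4, 224.4 and 319.1 under IgG and 350.0, 274.3 and 230.9 under the combination. Under anti-PDL1 they were 208.9, the floor and 360.4, and under anti-CTLA4 150.6, the floor and 87.1. Anti PDL1 2 and Anti CTLA4 2 were at the floor, where the true value could reach 42.0 and 52.5. The other 2 anti-PDL1 tumours lay within or above the IgG range, while all 3 anti-CTLA4 tumours lay below it.

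Against IgG, Jag2 under anti-CTLA4 was, by mean log2 level of these tumours, at least 2.7-fold lower with the floor value raised to its limit. This bound covers the unknown floor value only and not the variation between mice. The listed values gave a log2 difference of -1.87 (95% interval -4.186 to 0.444, limma adjusted p = 0.305), an interval that includes no change. Without the 3 liver-rich libraries the log2 difference was -1.44 (limma adjusted p = 0.271), resting on Anti CTLA4 3 alone. The combination did not overlap with anti-CTLA4 either and was, by a bound of the same kind, at least 3.18-fold higher in these tumours. The listed values gave a log2 difference of 2.11 (95% interval -0.208 to 4.422, limma adjusted p = 0.733), which also includes no change. Under anti-PDL1 the sign depended on 1 library: the listed values gave -1.04 (SE 1.028, limma adjusted p = 0.621), and 0.20 without Anti PDL1 2.

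Both receptors had their 3 highest values, or 3 of their 4 highest, in the liver-rich libraries. Notch1, a receptor of endothelial cells and developing T cells, had 276.5, 312.6 and 261.7 normalized counts under IgG and 323.6, 405.2 and 370.0 under the combination. It had 308.1, 573.6 and 357.9 under anti-PDL1 and 429.4, 535.4 and 266.8 under anti-CTLA4. The 3 combination tumours lay above every IgG tumour, and the anti-CTLA4 group overlapped with IgG. The means were 366.2 ± 40.9 and 283.6 ± 26.2 (SD, n = 3 each), with a log2 difference of 0.37 (SE 0.298, limma adjusted p = 0.651) that was -0.09 with median scaling. The log2 differences of 0.49 under anti-PDL1 and 0.48 under anti-CTLA4 (SE 0.298 each, limma adjusted p of 0.422 and 0.341) became 0.01 and -0.09 with that scaling.

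Notch2, the receptor needed for bile duct formation, had 661.0, 517.9 and 658.0 normalized counts under IgG. Anti-PDL1 tumours had 785, 1431 and 849.9, anti-CTLA4 tumours 957.7, 1123 and 731.1, and combination tumours 647.1, 1000.4 and 658.1. Under each single antibody all 3 tumours lay above every IgG tumour while the combination overlapped with IgG. The log2 difference was 0.69 under anti-PDL1 (SE 0.282, 95% interval 0.06 to 1.33, limma adjusted p = 0.229) and 0.60 under anti-CTLA4 (SE 0.282, limma adjusted p = 0.252). With median scaling these values were 0.21 and 0.03, and without the 3 liver-rich libraries 0.42 and 0.26. With both changes the anti-CTLA4 value was -0.08. The interaction was -0.99 (SE 0.399, unadjusted p = 0.0345, limma adjusted p = 0.345). It was -0.38 with median scaling, -0.32 with quantile normalization and -0.38 without the liver-rich libraries.

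As a share of the library median, Notch1 was 1.47 ± 0.16 under IgG, 1.47 ± 0.056 with anti-PDL1, 1.41 ± 0.41 with anti-CTLA4 and 1.38 ± 0.15 with both (SD, n = 3 each). All groups overlapped. Notch2 gave 3.17 ± 0.38, 3.64 ± 0.16, 3.24 ± 0.60 and 2.87 ± 0.53 in the same order, and on this scale the anti-PDL1 tumours lay above every IgG tumour, as for 10.2% of the 519 genes. The log2 level of Notch1 minus the endothelial score was 0.85 ± 0.22, 0.84 ± 0.18, 0.50 ± 0.25 and 0.72 ± 0.05. Of 9 bile duct and progenitor markers listed, 3 were on the panel, with scores of 6.88 to 7.45 in the IgG tumours, 7.03 to 7.26 with anti-PDL1, 6.13 to 6.61 with anti-CTLA4 and 6.06 to 7.35 with both. Under anti-PDL1 their median log2 difference was -0.40 with 1 of 3 above 0. Spp1 (osteopontin) rose by 2.48 log2 units (SE 0.549, limma adjusted p = 0.0452), while Epcam was at -1.998 (SE 1.005, limma adjusted p = 0.339) and Prom1 at -0.40 (SE 0.314, limma adjusted p = 0.532). The part of these cells in the receptor and Jagged values was not tested.

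The target gene Hes1, a transcriptional repressor, was high in 2 of the 3 anti-CTLA4 tumours. Normalized counts were 755.3, 768.1 and 956.1 under IgG and 1902, 1470 and 909.9 under anti-CTLA4. They were 480.9, 674.5 and 907.7 under anti-PDL1 and 683.8, 740.4 and 1041.9 under the combination. Anti CTLA4 3 lay within the IgG range, so the groups overlapped. The means under anti-CTLA4 and IgG were 1427 ± 497 and 826.5 ± 112 (SD, n = 3 each), with a log2 difference of 0.73 (SE 0.319, 95% interval 0.01 to 1.45, limma adjusted p = 0.232). It was 0.16 with median scaling, 0.15 without the 3 liver-rich libraries and -0.20 with both.

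Hes1 and Dll4 had their 2 highest values in the same libraries, Anti CTLA4 1 and Anti CTLA4 2. In Anti PDL1 2, with a liver score of 16.26, Hes1 was at 674.5, below every IgG tumour. As a share of the library median all 3 anti-PDL1 tumours lay below every IgG tumour for Hes1 (1.66 to 3.82 against 3.90 to 4.87), as for 20.4% of the 519 genes. On the normalized counts Hes1 differed by -0.30 under anti-PDL1 (SE 0.319, limma adjusted p = 0.646) and by -0.02 under the combination (SE 0.319, limma adjusted p = 1).

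The target gene Hey1, a transcriptional repressor, was lowest under anti-PDL1. Its normalized counts were 63.7, 103.5 and 90.5 under IgG. Anti-PDL1 tumours had 55.2, the floor and 36.9, and anti-CTLA4 tumours 87.7, the floor and 66.5. The combination tumours had 49.9, 84.3 and 52.3. On these counts all 3 anti-PDL1 tumours lay below every IgG tumour, and the other groups overlapped with IgG. As a share of the library median, the listed values of all treated tumours lay below those of every IgG tumour (0.329 to 0.546). The highest were 0.268 with anti-PDL1, 0.271 with anti-CTLA4 and 0.292 with both. Hey1 is not among the 519 genes for which shares on that scale were counted.

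Under anti-PDL1 Hey1 was, by mean log2 level of these tumours, at least 1.91-fold lower than under IgG. Here the floor value of Anti PDL1 2 was raised to its limit of 42.0. This bound covers the unknown floor value only and not the variation between mice. The log2 difference of the listed values was -1.26 (SE 0.551, 95% interval -2.505 to -0.022, limma adjusted p = 0.25). Without the 3 liver-rich libraries the log2 difference was -0.88. With median scaling it was -1.74 (limma adjusted p = 0.112), but that scaling also lowers the floor values of Anti PDL1 2 and Anti CTLA4 2. With every value raised to the highest floor limit it was -0.65 (limma adjusted p = 0.355). Under anti-CTLA4 the listed values gave -0.77 (SE 0.551, limma adjusted p = 0.378), -0.32 with the floor value at its limit of 52.5 and -1.33 with median scaling (limma adjusted p = 0.158). Under the combination the log2 difference was -0.47 (SE 0.551, limma adjusted p = 0.785), and -0.92 with median scaling (limma adjusted p = 0.355). The log2 level of Hey1 minus the endothelial score was -1.21 to -0.54 under IgG and at most -1.54 with anti-PDL1, -1.66 with anti-CTLA4 and -1.53 with both. The score itself was above that of every IgG tumour in all treated tumours but Anti PDL1 1. Jag2 and Hey1 were the 2 Notch genes at the floor in Anti PDL1 2 and Anti CTLA4 2 and above it in the other 10 libraries, as were 1.69% of all genes.

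**Figure D3:**
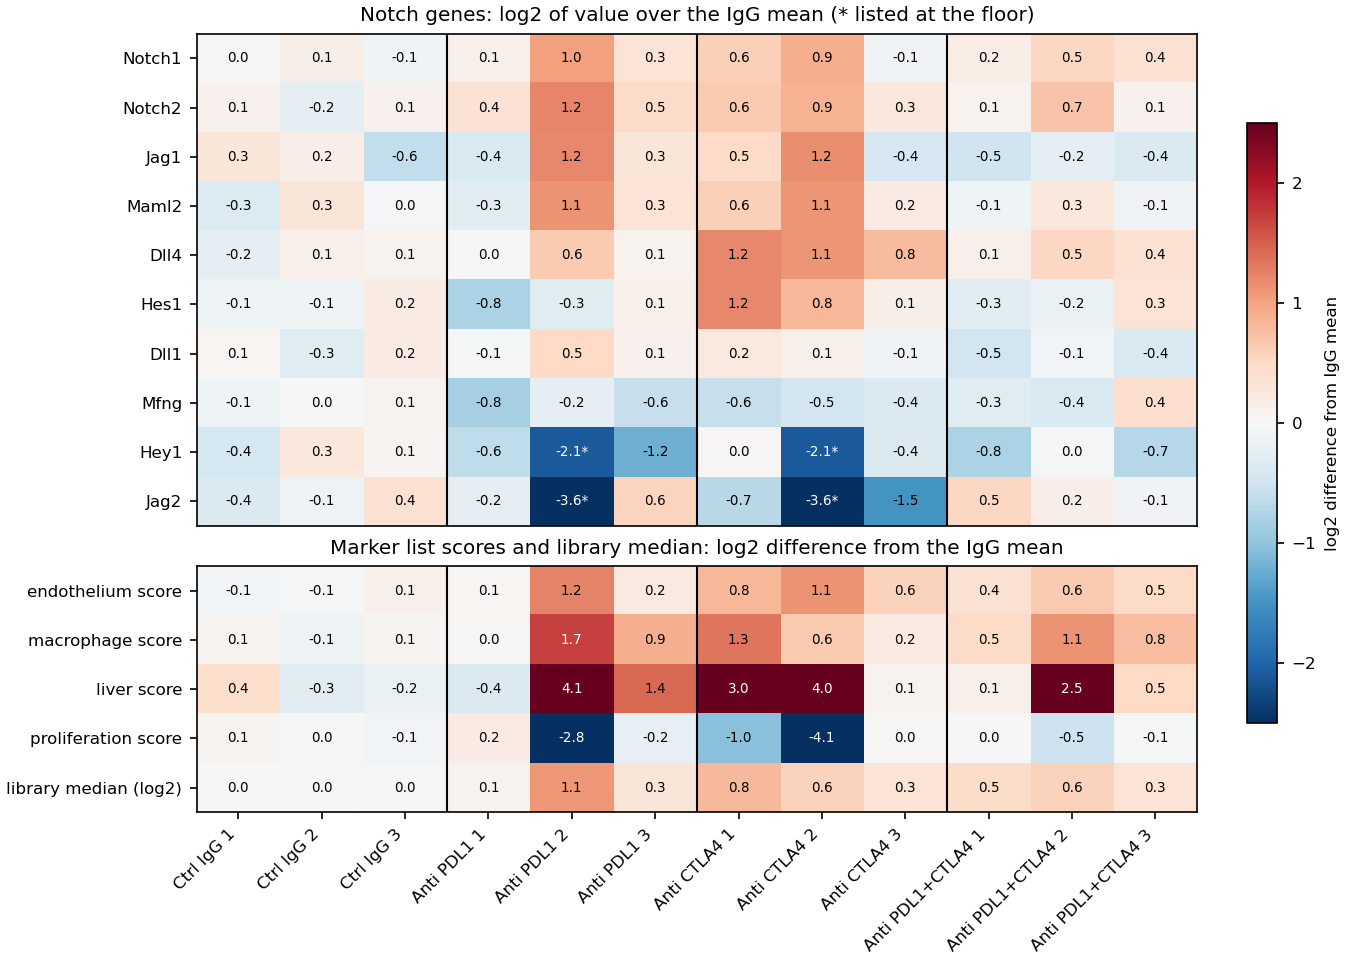
Upper panel: log2 of each Notch gene's value over its mean in the 3 IgG tumours, by tumour (asterisk: listed at the floor). Lower panel: log2 difference from the IgG mean of 4 marker list scores and of the library median; the columns Anti PDL1 2, Anti CTLA4 1 and Anti CTLA4 2 have liver scores of 15.22 to 16.26 and the 3 highest values of Notch1, Jag1 and Maml2.

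Mfng, which encodes Manic Fringe, an enzyme that adds sugars to Notch receptors and alters their response to Delta and Jagged ligands, was low under both single antibodies. Normalized counts were 70.9, 77.6 and 81.7 under IgG, 43.4, 65.1 and 51.7 under anti-PDL1 and 51.7, 55.1 and 59.9 under anti-CTLA4. Combination tumours had 62.4, 59.2 and 102.6. Under each single antibody all 3 tumours lay below every IgG tumour, while 1 combination tumour lay above all of them. The means were 76.8 ± 5.43 under IgG, 53.4 ± 11.0 under anti-PDL1 and 55.6 ± 4.12 under anti-CTLA4 (SD, n = 3 each).

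The log2 difference of Mfng was -0.53 under anti-PDL1 (SE 0.242, 95% interval -1.08 to 0.01, limma adjusted p = 0.271) and -0.46 under anti-CTLA4 (SE 0.242, limma adjusted p = 0.288). It was larger with median scaling, at -1.01 and -1.03 (limma adjusted p of 0.0725 and 0.0689), the smallest adjusted p of any Notch gene in these comparisons on that scale. The sign was the same in all 22 alternatives of both comparisons. The interaction was 0.91 (SE 0.342, unadjusted p = 0.0255, limma adjusted p = 0.345), and 1.51 with median scaling (limma adjusted p = 0.154). Mfng rested on 21 to 138 recovered counts per library: the 21 counts of Anti CTLA4 2 have a 95% Poisson interval of 34.1 to 84.3 normalized counts, which covers counting error only and includes the IgG values. Mfng is also expressed by lymphocytes. The score of 6 B cell markers was 4.66 to 5.30 in the IgG tumours, 4.39 to 4.84 with anti-PDL1, 4.39 to 5.22 with anti-CTLA4 and 4.48 to 4.82 with both. None of these 6 was above the floor in all 12 libraries. For 1 of them, Tnfrsf17, listed values were 0.50 log2 units lower in each comparison with IgG (limma adjusted p = 1.62e-05). Its treated values were all listed at the floor, so this p rests in part on ties without spread. Floor values could reach 42.0 in Anti PDL1 2 and 52.5 in Anti CTLA4 2, where a fall of this size cannot be seen. The part of B cells in the Mfng values was not tested.

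Maml2, a Mastermind coactivator of the receptor's nuclear complex, was highest in the liver-rich libraries. Normalized counts were 33.1, 51.2 and 40.9 under IgG, 34.2, 90.4 and 52.9 under anti-PDL1, 62.9, 89.2 and 47.7 under anti-CTLA4 and 38.9, 50.2 and 39.5 under the combination. Every treated group overlapped with IgG. The log2 differences were 0.41, 0.64 and 0.05 under anti-PDL1, anti-CTLA4 and the combination (SE 0.355 each, limma adjusted p of 0.57, 0.308 and 1). They were -0.07, 0.08 and -0.40 with median scaling but 0.70, 0.73 and 0.24 with quantile normalization (limma adjusted p of 0.174, 0.175 and 0.686), so that these scalings disagreed. Without the 3 liver-rich libraries they were 0.05, 0.21 and 0.05.

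**Figure D4:**
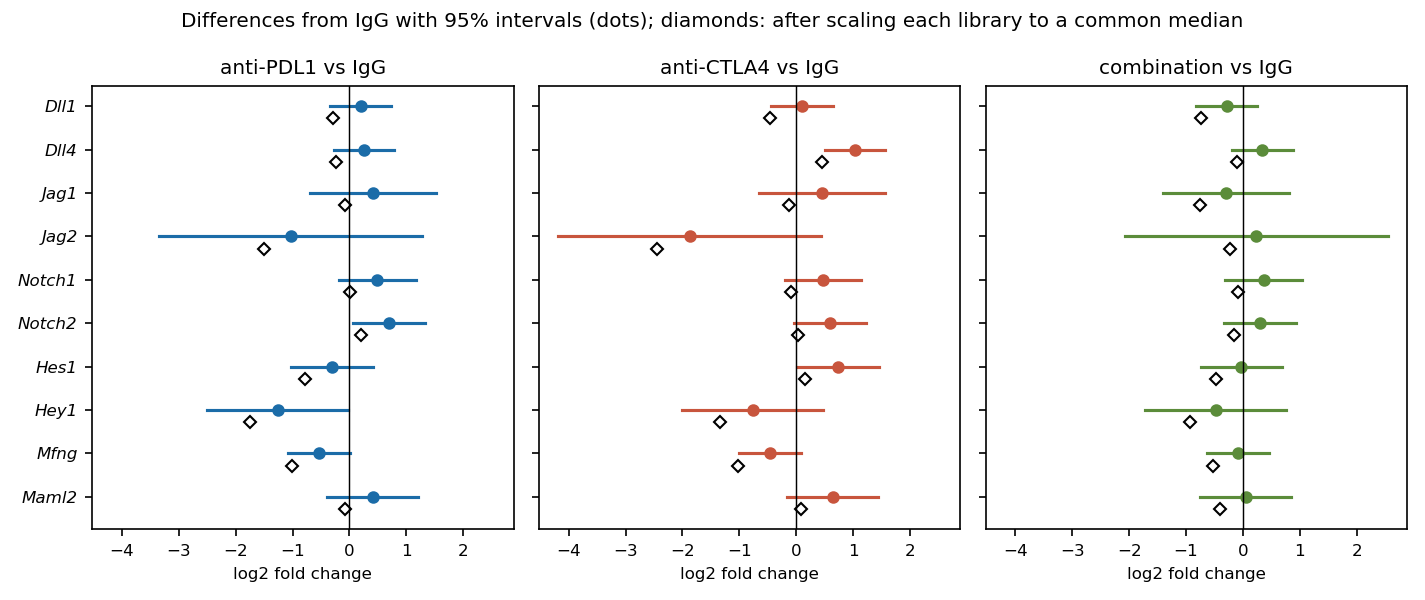
Log2 fold change of each Notch gene against IgG under anti-PDL1, anti-CTLA4 and the combination; dots with lines are the limma estimates with 95% intervals, and open diamonds the estimates after scaling each library to a common median. The intervals of Dll4 (0.50 to 1.56) and Hes1 under anti-CTLA4 and of Notch2 and Hey1 under anti-PDL1 exclude 0. These intervals are not adjusted for the number of genes, and no Notch gene passed after adjustment. Median scaling moves every estimate to the left.

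Across the 10 genes, Anti PDL1 2 held the highest of the 12 values in 5 of the 10 (Dll1, Jag1, Notch1, Notch2 and Maml2), against 33.0% of the 745 genes with a single highest value. The 3 liver-rich libraries together held the 3 highest values in 3 of the 10 (Jag1, Notch1 and Maml2), against 26.5% of all genes. Within the other 9 libraries the highest value was 1.55 times the lowest for Notch1, 1.6 times for Dll1 and Maml2, 1.9 times for Jag1 and 1.93 times for Notch2. It was 2.05 times for Dll4, 2.17 for Hes1, 2.37 for Mfng, 2.8 for Hey1 and 4.14 for Jag2. The part of liver, endothelial or other cell content in these patterns was not tested.

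The median log2 difference over the 10 genes was 0.46 with anti-CTLA4, 0.23 with anti-PDL1 and 0.01 with both, against 0.17, 0.07 and 0.03 over all genes. Many genes at the floor hold the all-gene medians near 0, and over the 519 genes above the floor everywhere, as 8 of the 10 Notch genes are, the medians were 0.51, 0.32 and 0.28. With median scaling the Notch gene values were -0.11, -0.26 and -0.44, against -0.40, -0.42 and -0.41 over all genes. Over the 519 genes they were -0.06, -0.16 and -0.17. This scaling also moves values listed at the floor, so that genes at the floor in both groups fall below 0. The 3 comparisons share the IgG tumours. Of the 10 genes, 7 had a log2 difference above 0 with anti-CTLA4, 6 with anti-PDL1 and 5 with both, beside 56.8%, 53.9% and 53.9% of all genes. With median scaling 4, 2 and 0 did, beside 34.2%, 28.8% and 28.3% of all genes, where genes at the floor in both groups count as below 0.

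The nearest genes by level across tumours differed between Notch genes. By Pearson r of log2 levels over the 12 libraries, among 519 genes above the floor everywhere, Dll4 was most like Robo4, an endothelial guidance receptor that is also on the endothelial list (r = 0.91, Spearman rho = 0.88), and Itgb3, an integrin chain (r = 0.89, rho = 0.87). Over the 9 libraries without the liver-rich ones, r was 0.77 and 0.70. Notch1 was most like Palmd (r = 0.97, rho = 0.95) and Apoe, an apolipoprotein of hepatocytes and macrophages (r = 0.96, rho = 0.92), with r of 0.89 and 0.83 over the 9. Notch2 was most like Lgals9 and Ifitm2 (r = 0.96 each), Jag1 like Ccl27a and Hdac4 (r = 0.93 each), and Maml2 like Gimap4 and Cxcl11 (r = 0.92 each). Over the 9 these were 0.88 and 0.93, 0.73 and 0.71, and 0.64 and 0.65. Over the 12 libraries r was lower for Dll1 with Gpr160 and Bcl2l1 (r = 0.75 each), for Hes1 with Itgb3 (r = 0.74) and Hk1 (r = 0.72), and for Mfng with Ier3 (r = 0.61) and Rasal1 (r = 0.59). Over the 9 libraries r was 0.92 for Hes1 with Hk1. These are the highest of 519 values per gene over libraries that share a scaling, given as a description.

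Of 39 other Notch pathway genes listed, 3 were on the panel and 0 passed in any comparison. Aph1b encodes a subunit of the gamma-secretase that cuts the receptor, Dtx4 a Deltex ubiquitin ligase, and Kat2b an acetyltransferase that joins the nuclear complex. Aph1b had 32.2, 38.8 and 22.1 normalized counts under IgG and 105.7, 107.6 and 39.3 under anti-CTLA4, and 170.2 in Anti PDL1 2. Its log2 difference under anti-CTLA4 was 1.31 (SE 0.664, limma adjusted p = 0.28). Kat2b had 507.8 to 796.4 under IgG and 2626, 3593 and 541.1 under anti-CTLA4 (log2 difference 1.48, SE 0.856, limma adjusted p = 0.309). In both genes Anti CTLA4 3 was close to or within the IgG range, and the 3 highest values were those of the liver-rich libraries. Dtx4 had 208.7 to 251.5 under IgG, 243.5 to 348.8 under anti-PDL1 and 251.8 to 338.9 under anti-CTLA4, with log2 differences of 0.36 and 0.25 (SE 0.221 each, limma adjusted p of 0.448 and 0.46).

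Of 10 genes known to be transcribed under Notch in some tissue, 7 were on the panel and 0 passed in any comparison. Il2ra was at the floor in all 12 libraries. The cyclin gene Ccnd1 had 435.8 to 931.8 normalized counts under IgG and 2783, 4367 and 956.7 under anti-CTLA4, with a log2 difference of 1.86 (SE 0.744, limma adjusted p = 0.213) that was 0.62 without the liver-rich libraries. All 3 anti-CTLA4 values lay above every IgG value, Anti CTLA4 3 by a small margin. Snai1, an epithelial-mesenchymal transition factor, had 56.2 to 104.9 under IgG and 43.4, the floor and 39.4 under anti-PDL1 (limma adjusted p = 0.11). Cdkn1a, the p21 cell cycle inhibitor, had its lowest values, 344.6 and 267.7, in Anti PDL1 2 and Anti CTLA4 2, the libraries in which Jag2 and Hey1 were at the floor. Myc had 80.6 to 125.8 under IgG, 118.9 to 523.2 under anti-PDL1 (log2 difference 0.96, SE 0.532, limma adjusted p = 0.391, and 0.27 without Anti PDL1 2, the highest) and 119.8 to 215.2 under anti-CTLA4 (0.69, SE 0.532, limma adjusted p = 0.4). Nothing in the sources used here says whether its probe reads the MYC that drove the tumours. Gata3 was at the floor in all 3 tumours of each single antibody and in 1 of the 3 IgG tumours, and Bcl2 had log2 differences of -0.36 to 0.32 from IgG.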

How the data were processed

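The 12 libraries were grouped by their titles, and each column was tied to its sample by accession. The deposited values are a signal, barcode counts that the authors multiplied by 1 factor per library, with low values set to a floor of 20 (read from the values; the sources used here name neither software nor normalization method). Above the floor at least 99.84% of values per library were whole multiples of 1 step within 0.0075, which gave the factors, the recovered counts and the limit of each floor value (at most 52.5). Member values rested on 21 to 1366 recovered counts, with exact Poisson 95% half-widths of 5.34% to 45.5%. Such intervals cover counting error only.

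limma 3.58.1 (R 4.3.3; lmFit, eBayes with trend, 8 residual degrees of freedom) was run on log2(value + 1), which understates differences of low genes. A filter, 20 or above in at least 3 libraries, removed no gene. Bounds raise floor values to their limit. With 3 mice against 3, an exact permutation test cannot go below 0.1, so none is given for single genes. The fit was tested on simulated data. All 10 symbols matched the RefSeq table of GRCm38.p6, used for names alone. Python 3.11.15 was used for the remaining steps.

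The members, lists and settings were chosen with earlier results of these data known. Named genes were the 10 members, 2 pathway lists and, for each member above the floor everywhere, the 2 genes most correlated with it. Marker lists (liver, biliary, endothelium, fibroblast, macrophage, B cell, T cell, proliferation) served as descriptions. A further gene of the liver list is not reported here and is left out of its score. Same-numbered mice deviated together in 11 of 18 pairs of libraries (correlation above 0.1, range -0.61 to 0.75). This held for all 3 pairs only in the combination against anti-PDL1. Mouse 2 had the highest liver score in each of these groups (14.70 and 16.26). The sample titles give numbers but state no pairing, so whether the mice were paired is not known. The fit with the replicate number as a block also called 0 Notch genes. Protein and promoter sequences were not used here.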

Additional observations from a re-analysis of the deposited data

How the results depend on the processing

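Across the 6 comparisons and 131 refits, the count of Notch genes past the threshold was 0 in 128. It was 1 (Dll4) for anti-CTLA4 against IgG without the mean-variance trend, and with libraries left out in turn it ran from 0 to 1 (Dll4 without Anti PDL1 2). For the combination against IgG it was 1 (Dll1) with median scaling and without the 3 liver-rich libraries, a setting added after seeing the data. With the replicate number as a block it was 0 in each comparison, with an adjusted p of 0.05, not below the threshold, for Dll4 under anti-CTLA4. Of 1310 refitted log2 differences of single Notch genes, 76 changed sign without a call, 25 of them under median scaling or quantile normalization, and 30 of the 60 differences kept their sign throughout. Under median scaling the median log2 difference of all genes went from 0.03, 0.07 and 0.17 to -0.41, -0.42 and -0.40 for the combination, anti-PDL1 and anti-CTLA4 against IgG. Calls over all genes in these 3 comparisons numbered 22, 23 and 20. They were 0 each with a filter at 50, 2 each with a common floor, 40, 48 and 54 with median scaling, and 48, 8 and 10 with only the compared groups fitted. Without the liver-rich libraries they were 60, 19 and 9, and 207, 29 and 15 with median scaling as well. The block gave 14 for the combination, quantile normalization 15 for anti-PDL1, and leaving out single mice 12 to 31, 14 to 32 and 12 to 45. Higher and lower calls were 1 and 21, 2 and 21, and 0 and 20, against 6 and 14, 5 and 10, and 4 and 14 with quantile normalization. The interaction had 10 calls, with a range of 0 to 24 (0 with median scaling), and the combination against anti-CTLA4 0, with a range of 0 to 4. An edgeR test was planned for recovered counts and not run, because the floor hides low counts. Depth limits Jag2 and Hey1, which have only a bound in Anti PDL1 2 and Anti CTLA4 2, and Mfng and Maml2, with as few as 21 and 28 recovered counts. Directions within same-numbered pairs were added after seeing the data.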
